A study of Homo sapiens and Mus musculus with 28 samples.

Results

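The ISG15 conjugation system was described in SCC1, an established human head and neck squamous cell carcinoma (HNSCC) line, from counts of polyadenylated RNA. Its 6 genes were taken by symbol, 1 row each, out of 35135 human gene IDs. They are the modifier ISG15, the activating enzyme UBA7, the conjugating enzyme UBE2L6, the ligases HERC5 and HERC6 and the protease USP18. The study asked how loss of REXO4, an RNA exonuclease, changes gene expression, and the 24 SCC1 libraries used here fall into 8 groups of 3. A set of 15 libraries, grouped from the sample titles, is called the knockout experiment here. KO_2_BX_795 is labelled as knockout 2 with BX-795, an inhibitor of TBK1 and other kinases, and KO_2_H151 as knockout 2 with H-151, a covalent inhibitor of STING. R4KO_2_Vehicle and R4KO_1_Vehicle are REXO4 knockouts 2 and 1 with vehicle, and Ctrl_Vehicle is control cells with vehicle. The other 9 libraries, called the iR4 experiment here, are H151_iR4, iR4 and Vehicle, where iR4 is written as the labels give it and H151_iR4 adds H-151 to it. No label of the iR4 experiment names a knockout. The sources used here do not give doses, times, how the knockouts were made, whether each is 1 clone or what separates the replicates, so p-values may measure only technical spread between libraries.

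ISG15 is a ubiquitin-like protein that is joined to lysines of other proteins. UBA7, its E1 enzyme, activates it, UBE2L6, its E2 enzyme, carries it, and an E3 ligase passes it to the target. HERC5 is the main ligase in human cells, while in mouse, which has no HERC5, HERC6 does this work. USP18 takes ISG15 off again, and apart from that role it binds the interferon receptor chain IFNAR2 and restrains its signalling. The genes of the system are known as interferon-stimulated genes. Their transcription is driven through the interferon-stimulated response element (ISRE), bound by a complex that holds STAT2 and IRF9, and at some promoters by IRF3, the factor that TBK1 activates downstream of STING.

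In GRCh38 (GENCODE v29), HERC6 at chr4:88378739-88443111 and HERC5 at chr4:88457117-88506163 lie side by side on the plus strand, with 14005 bases between them. ISG15 lies at chr1:1001138-1014540 (plus strand), UBA7 at chr3:49805207-49813946 (minus), UBE2L6 at chr11:57551656-57568284 (minus) and USP18 at chr22:18149899-18177397 (plus). A processed pseudogene and an antisense gene overlap ISG15 on the other strand, and the sources used here do not say whether reads were counted by strand. USP18 shares 23.0% of its 50-base windows with USP41, its near-identical relative, so part of its counts could be split between them. The row of that relative held 8 to 44 counts over each group, against 683 to 1231 counts for USP18.

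Promoter windows from RefSeq (GRCh38.p14) were found for 4 of the 6 members. Those of HERC5 and ISG15 and of HERC5's neighbour HERC6 are shown because HERC5 and ISG15 had the widest ranges over the 8 groups and because the promoters of the neighbouring ligases differ in matches to the ISRE core. Capitals mark the core, GAAA, any 2 bases and GAAA again, or its reverse complement, TTTC, any 2 bases and TTTC. Both strands were searched. Each window ends shortly after RefSeq's start site, which for ISG15 lies inside the longer GENCODE gene. The windows are ISG15 at chr1:1013247-1013546, HERC5 at chr4:88456869-88457168 and HERC6 at chr4:88378602-88378901, each read along the plus strand.
ISG15: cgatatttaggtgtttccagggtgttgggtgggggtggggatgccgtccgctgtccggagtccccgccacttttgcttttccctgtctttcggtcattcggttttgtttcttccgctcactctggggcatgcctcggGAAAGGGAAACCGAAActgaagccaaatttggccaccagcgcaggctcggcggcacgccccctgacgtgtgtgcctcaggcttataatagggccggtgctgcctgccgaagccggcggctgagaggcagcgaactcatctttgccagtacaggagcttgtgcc
HERC5: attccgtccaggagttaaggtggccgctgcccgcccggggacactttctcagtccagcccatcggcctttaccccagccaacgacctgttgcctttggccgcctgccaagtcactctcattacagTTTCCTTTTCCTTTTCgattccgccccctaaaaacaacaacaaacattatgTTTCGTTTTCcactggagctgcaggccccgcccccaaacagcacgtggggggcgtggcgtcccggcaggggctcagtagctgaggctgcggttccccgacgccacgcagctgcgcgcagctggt
HERC6: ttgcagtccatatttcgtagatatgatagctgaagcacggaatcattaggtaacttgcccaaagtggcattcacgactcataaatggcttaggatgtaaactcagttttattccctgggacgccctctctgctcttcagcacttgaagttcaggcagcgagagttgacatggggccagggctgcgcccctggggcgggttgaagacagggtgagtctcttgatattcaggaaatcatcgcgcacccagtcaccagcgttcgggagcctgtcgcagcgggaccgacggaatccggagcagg
ISG15 held 2 overlapping matches, which begin at -113 and -107 from the start site. HERC5 held 3 on the other strand, an overlapping pair at -125 and -119 and another at -74. HERC6 held 0, as did both start sites listed for UBE2L6. Of 35116 human promoter windows in the table, 3.57% held at least 1 match and 0.259% held at least 2. A match is a description of the letters and not a measured site.

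Library depth ran from 16.04 to 27.94 M counts. Within the knockout experiment it was higher in the inhibitor groups, at 21.36 to 27.94 M in KO_2_BX_795 and 21.52 to 26.62 M in KO_2_H151. It was 17.53 to 17.67 M in R4KO_2_Vehicle, 17.47 to 17.69 M in R4KO_1_Vehicle and 17.73 to 18.03 M in Ctrl_Vehicle. The sample titles do not say whether these libraries were made together, and the part of this difference in the results was not tested. Levels are given as CPM, a count divided by the library size in M counts, which was scaled with TMM factors over the 24 libraries. REXO4 averaged 6.30 ± 1.17 CPM in R4KO_2_Vehicle and 9.39 ± 0.341 CPM in R4KO_1_Vehicle, against 73.9 ± 3.19 CPM in Ctrl_Vehicle (SD, n = 3 each). The inhibitor-treated libraries held more of it, 18.9 ± 0.441 CPM in KO_2_BX_795 and 17.9 ± 1.53 CPM in KO_2_H151. They also stood apart from the knockout they are labelled as. The 23 genes at least 2 log2 units higher in R4KO_1_Vehicle than in R4KO_2_Vehicle and Ctrl_Vehicle had median log2 CPM of 1.04 in KO_2_BX_795, 0.92 in KO_2_H151 and 0.89 in R4KO_1_Vehicle, against -2.04 in R4KO_2_Vehicle. A further 8 genes were higher in R4KO_2_Vehicle than in R4KO_1_Vehicle and Ctrl_Vehicle by the same measure. Their median was -0.31 in KO_2_BX_795, -0.10 in KO_2_H151 and 1.37 in R4KO_2_Vehicle, against -1.22 in R4KO_1_Vehicle and -1.53 in Ctrl_Vehicle. These 8 genes also stood at 1.56 in iR4 and -0.75 in H151_iR4, so they are not particular to that knockout. The 23 genes stood at -1.95 in Ctrl_Vehicle and between -0.63 and -0.29 in the iR4 experiment. The contrast between the knockouts was set by the choice of the genes. The inhibitor results are given against both knockouts, and the part that these differences have in them was not tested. All 8 squamous markers listed reached 1 CPM in at least 3 libraries, and summed to between 1583 and 3691 CPM per library. Leukocyte markers summed to at most 0.898 CPM, with 0 of 6 reaching that level, PTPRC being at 0 in 17 libraries and CD3E in 22. Fibroblast markers summed to between 22.5 and 47.9 CPM, with 3 of 6 reaching it, of which COL1A1 reached the highest level. COL1A2 and DCN were at 0 in 20 and 11 of the 24 libraries.

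All 6 members passed the filter on low counts in each comparison. Per kilobase of exon (GENCODE v29), ISG15 had the highest level of the 6 in both knockouts and in control cells, at 206 ± 13.9 CPM per kb in R4KO_2_Vehicle and 69.0 ± 3.59 in Ctrl_Vehicle. UBE2L6 came next, at 28.7 ± 1.26 CPM per kb in R4KO_2_Vehicle and 19.9 ± 0.973 in Ctrl_Vehicle. HERC5 stood at 11.3 ± 1.41 CPM per kb in R4KO_2_Vehicle, which differs from USP18 there by less than its SD, and was the lowest of the 6 in Ctrl_Vehicle, at 2.06 ± 0.181. USP18, HERC6 and UBA7 stood at 10.1 ± 0.160, 6.93 ± 0.245 and 5.63 ± 0.561 CPM per kb in R4KO_2_Vehicle and at 6.34 ± 0.329, 3.25 ± 0.139 and 3.22 ± 0.321 in Ctrl_Vehicle, where HERC6 and UBA7 differed by less than their SD.

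**Figure D1:**
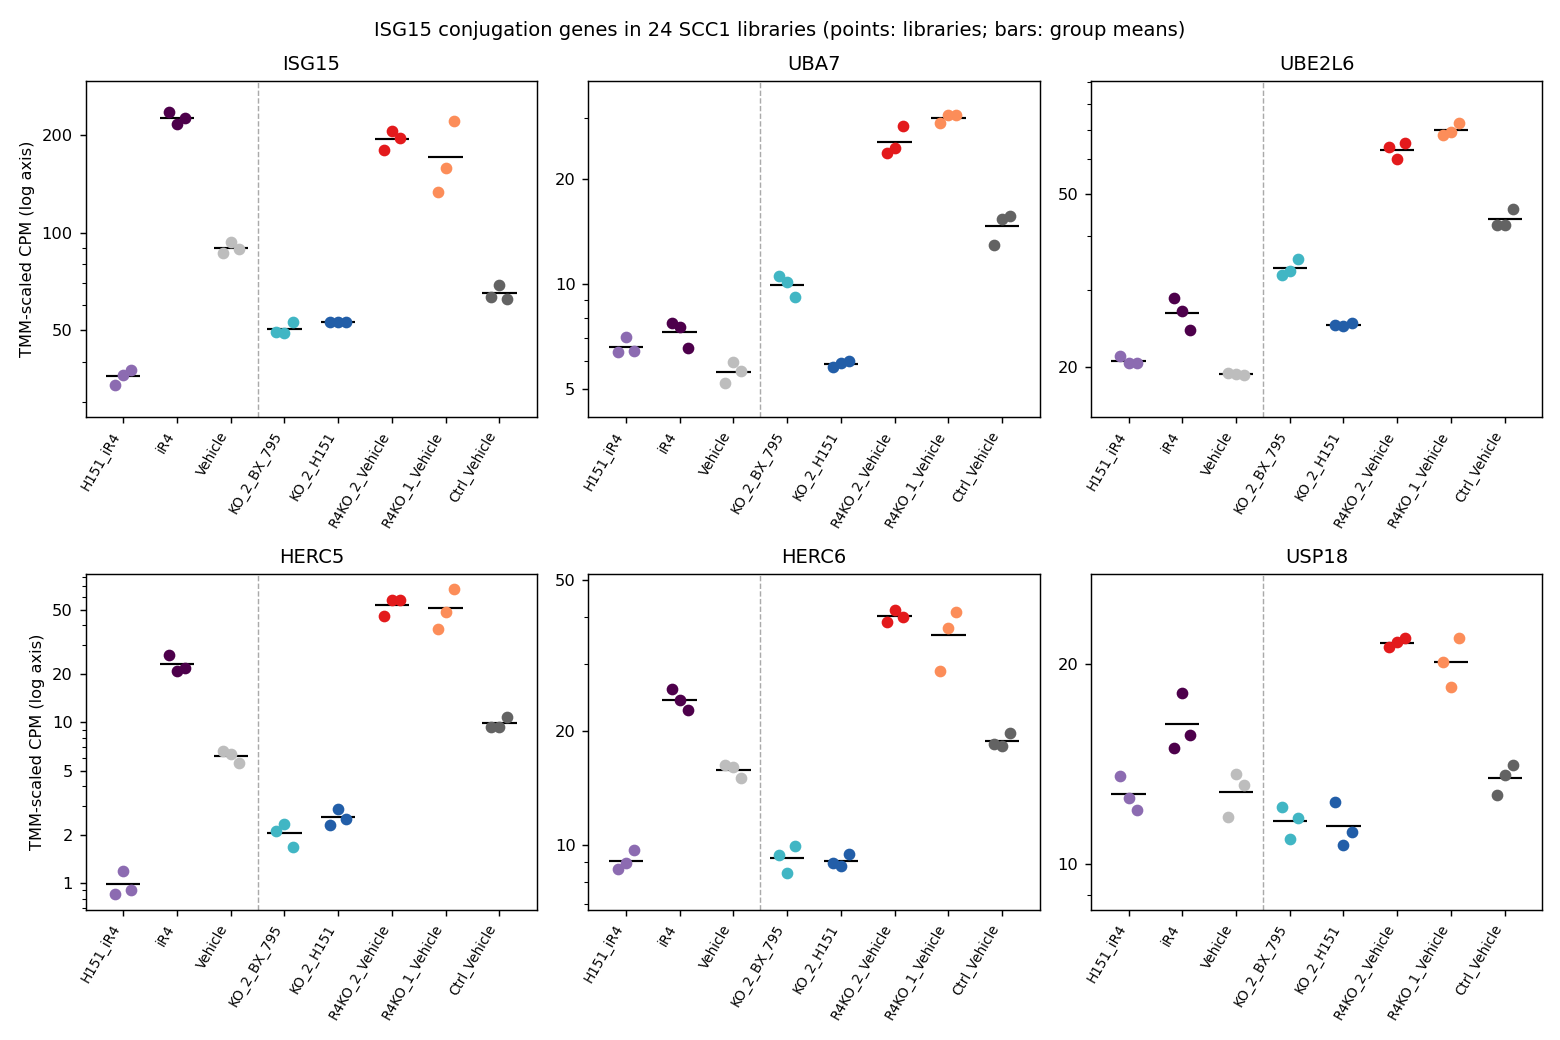
TMM-scaled CPM (log axis, its own scale in each panel) of the 6 genes in each of 24 SCC1 libraries, with points for libraries and bars for the mean of 3. The 8 groups run along the x axis, with the iR4 experiment left of the dashed line and the knockout experiment right of it. HERC5 lies between 37.8 and 67.0 CPM in the knockouts with vehicle and below 3 CPM in each library given BX-795 or H-151, while USP18 stays between 10.7 and 21.9 CPM throughout.

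In both REXO4 knockouts all 6 genes of the system rose over control cells, the ligase HERC5 and the modifier ISG15 by the most. ISG15 stood at 180.3, 206 and 196 CPM in R4KO_2_Vehicle and at 134, 159 and 221 CPM in R4KO_1_Vehicle, against 63.5, 68.8 and 62.6 CPM in Ctrl_Vehicle. Each knockout library was above each control library, and the R4KO_1_Vehicle libraries spread more widely than those of the other knockout. The share of all genes whose libraries separate in this way was not counted. No change is therefore read from a lack of overlap, here or in the SCC1 comparisons below. The log2 fold change was 1.58 ± 0.11 (SE) in R4KO_2_Vehicle (adjusted p = 3.83e-11) and 1.41 ± 0.11 in R4KO_1_Vehicle (adjusted p = 3.25e-10; edgeR quasi-likelihood test, adjusted over all genes tested). Both comparisons use the same Ctrl_Vehicle libraries. In bulk RNA, a change in the share of cells that express a gene and a change in its RNA per cell cannot be told apart.

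For the E1 and E2 genes the rise was smaller. UBA7 stood at 23.7, 24.5 and 28.5 CPM in R4KO_2_Vehicle and at 28.9, 30.6 and 30.5 CPM in R4KO_1_Vehicle, against 13.0, 15.3 and 15.6 CPM in Ctrl_Vehicle. Its log2 fold changes were 0.81 ± 0.08 in R4KO_2_Vehicle (adjusted p = 1.5e-08) and 1.04 ± 0.08 in R4KO_1_Vehicle (adjusted p = 2.3e-10). UBE2L6 stood at 63.9, 59.96 and 65.3 CPM in R4KO_2_Vehicle and at 68.1, 69.3 and 72.4 CPM in R4KO_1_Vehicle, against 42.5, 42.4 and 46.1 CPM in Ctrl_Vehicle. For both genes the knockout libraries lay above the control libraries with no overlap. The UBE2L6 log2 fold changes were 0.53 ± 0.05 and 0.69 ± 0.05 in R4KO_2_Vehicle and R4KO_1_Vehicle (adjusted p = 6.71e-09 and 1.19e-10).

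The 2 ligases, neighbours on chromosome 4, rose by unequal amounts. HERC5 stood at 45.9, 57.7 and 57.3 CPM in R4KO_2_Vehicle and at 37.8, 48.6 and 67.0 CPM in R4KO_1_Vehicle, against 9.32, 9.34 and 10.8 CPM in Ctrl_Vehicle. That is 5.46-fold higher in R4KO_2_Vehicle (log2 2.45 ± 0.16, adjusted p = 1.01e-11) and 5.22-fold higher in R4KO_1_Vehicle (log2 2.38 ± 0.16, adjusted p = 2.15e-11). HERC6 stood at 38.8, 41.6 and 39.9 CPM in R4KO_2_Vehicle and at 28.8, 37.4 and 41.2 CPM in R4KO_1_Vehicle, against 18.5, 18.2 and 19.7 CPM in Ctrl_Vehicle. Its log2 fold changes were 1.10 ± 0.09 (adjusted p = 8.68e-10) and 0.94 ± 0.09 (adjusted p = 1.45e-08) in R4KO_2_Vehicle and R4KO_1_Vehicle. For neither ligase did a knockout library overlap the control libraries.

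The protease gene USP18 rose as well, to 21.2, 21.6 and 21.9 CPM in R4KO_2_Vehicle and 20.1, 18.4 and 21.9 CPM in R4KO_1_Vehicle, against 12.7, 13.6 and 14.1 CPM in Ctrl_Vehicle. Its log2 fold changes of 0.68 ± 0.08 and 0.59 ± 0.08 (adjusted p = 1.11e-07 and 1.12e-06) were the smallest but 1 of the system in R4KO_2_Vehicle, above UBE2L6, and the smallest in R4KO_1_Vehicle. Its knockout and control libraries did not overlap. Of the 6 members, 6 were higher in R4KO_2_Vehicle, where 34.0% of the 14348 genes tested were higher and 32.2% lower, and 6 in R4KO_1_Vehicle, where 33.0% were higher and 31.4% lower, so that the members' share was above that of all genes. The median log2 fold change of the members was 0.95 in R4KO_2_Vehicle and 0.99 in R4KO_1_Vehicle, against 0.02 over all genes in each. Of the 8 squamous markers, 3 were higher and 4 lower in R4KO_2_Vehicle, and 3 were higher and 5 lower in R4KO_1_Vehicle. Of the fibroblast-list genes tested, LUM rose by 3.65 and 2.55 and COL1A1 by 0.43 and 0.70 on the log2 scale in R4KO_2_Vehicle and R4KO_1_Vehicle. COL3A1 rose by 1.51 in R4KO_2_Vehicle and was not called in R4KO_1_Vehicle (0.46). The part of these markers in the result was not tested.

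The knockouts were also set against each other. R4KO_2_Vehicle had less UBA7 and UBE2L6 than R4KO_1_Vehicle, with log2 fold changes of -0.24 ± 0.07 and -0.16 ± 0.05 (adjusted p = 0.0175 for each), where 15.1% of all genes tested were higher and 16.6% lower. ISG15, HERC5, HERC6 and USP18 missed the threshold, with log2 fold changes between 0.06 and 0.17 and adjusted p between 0.16 and 0.735. These results rest on single libraries. With no filter on low counts ISG15 was called higher (0.17, adjusted p = 0.00198). Without R4KO_1_Vehicle replicate 3, ISG15 (0.40, adjusted p = 2.85e-06), HERC5 (0.30, adjusted p = 0.00825) and HERC6 (0.27, adjusted p = 0.00739) were called higher in R4KO_2_Vehicle and UBE2L6 was no longer called (adjusted p = 0.058). Without R4KO_1_Vehicle replicate 2 or R4KO_2_Vehicle replicate 1 UBA7 was not called (adjusted p = 0.0611 and 0.101), and without R4KO_2_Vehicle replicate 2 neither UBA7 nor UBE2L6 was (adjusted p = 0.079 and 0.108).

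With either inhibitor, all 6 genes of the system were lower than in R4KO_2_Vehicle, HERC5 by far the most. HERC5 stood at 2.10, 2.34 and 1.68 CPM in KO_2_BX_795 and at 2.31, 2.90 and 2.51 CPM in KO_2_H151, against 45.9, 57.7 and 57.3 CPM in R4KO_2_Vehicle. These levels rest on 147 counts over KO_2_BX_795, 180 over KO_2_H151 and 3063 over R4KO_2_Vehicle. HERC5 was 26.8-fold lower with BX-795 (log2 -4.74 ± 0.19, adjusted p = 2.81e-15) and 21.1-fold lower with H-151 (log2 -4.40 ± 0.19, adjusted p = 5.14e-15; edgeR). Both comparisons use the same R4KO_2_Vehicle libraries.

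ISG15 stood at 49.5, 49.0 and 53.1 CPM in KO_2_BX_795 and at 53.2, 52.9 and 52.8 CPM in KO_2_H151, against 180.3, 206 and 196 CPM in R4KO_2_Vehicle. It was 3.87-fold lower with BX-795 and 3.70-fold lower with H-151 (log2 -1.95 ± 0.11 and -1.89 ± 0.11). HERC6 stood at 9.38, 8.44 and 9.91 CPM in KO_2_BX_795 and at 8.94, 8.79 and 9.46 CPM in KO_2_H151, against 38.8, 41.6 and 39.9 CPM in R4KO_2_Vehicle. Its log2 fold changes were -2.12 ± 0.10 and -2.16 ± 0.10. The USP18 changes were smaller, -0.90 ± 0.08 with BX-795 and -0.93 ± 0.08 with H-151. The inhibitor-treated libraries lay below the R4KO_2_Vehicle libraries with no overlap for each of these genes, though the share of all genes that separate so was not counted.

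The E1 and E2 genes were the members on which the inhibitor groups differed. UBA7 stood at 10.5, 10.2 and 9.18 CPM in KO_2_BX_795 and at 5.77, 5.94 and 6.02 CPM in KO_2_H151, against 23.7, 24.5 and 28.5 CPM in R4KO_2_Vehicle. UBE2L6 stood at 32.5, 33.2 and 35.5 CPM in KO_2_BX_795 and at 24.98, 24.9 and 25.3 CPM in KO_2_H151, against 63.9, 59.96 and 65.3 CPM in R4KO_2_Vehicle. Against R4KO_2_Vehicle, UBA7 fell by 1.38 and 2.13 on the log2 scale with BX-795 and H-151, and UBE2L6 by 0.91 and 1.34. The adjusted p of all 6 members was at most 4.86e-10 with each inhibitor (edgeR). Set directly against KO_2_H151, KO_2_BX_795 had more UBA7 (log2 0.75 ± 0.10, adjusted p = 3.24e-05) and more UBE2L6 (0.43 ± 0.05, adjusted p = 1.68e-05), where 5.67% of genes were called higher and 3.99% lower. These shares stand for 814 and 573 genes. With 1 library left out 814 to 1015 genes were called in all, and 2653 with only the groups compared, while the members called remained 2. The other 4 members missed the threshold, with intervals at the 0.95 level for the log2 difference of -0.31 to 0.18 for ISG15, -1.01 to 0.32 for HERC5, -0.21 to 0.28 for HERC6 and -0.14 to 0.19 for USP18. BX-795 and H-151 are unrelated compounds with different targets, and the sources used here give no dose for either.

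Of the 6 members, 6 were lower in KO_2_BX_795 than in R4KO_2_Vehicle, where 36.4% of all genes tested were higher and 37.1% lower, and 6 in KO_2_H151, where 35.7% were higher and 37.0% lower. The median log2 fold changes of the members were -1.66 and -2.01 for BX-795 and H-151, against -0.01 over all genes for each. Against R4KO_1_Vehicle, which these libraries resemble in the 23 genes above, 6 were also lower with each inhibitor (among all genes, 33.8% were higher and 35.2% lower with BX-795, and 33.0% higher and 35.3% lower with H-151). There HERC5 was at -4.68 ± 0.20 and -4.33 ± 0.19, ISG15 at -1.78 ± 0.11 and -1.71 ± 0.11 and UBA7 at -1.61 ± 0.08 and -2.36 ± 0.09 on the log2 scale. Markers moved too. All 8 squamous markers were lower in KO_2_H151 than in R4KO_2_Vehicle (median log2 -1.17), and 6 of 8 in KO_2_BX_795 (median -0.85). In KO_2_BX_795 KRT14 was higher, at 0.62 on the log2 scale, and KRT5 was not called (-0.01). Of the 3 fibroblast-list genes tested, LUM was at -4.04 and -3.72 and COL3A1 at -4.53 and -4.93 on the log2 scale with BX-795 and H-151, while COL1A1 rose by 0.67 and 0.38. Their part in the results was not tested.

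The treated knockouts also lay below control cells. Of the 6 members, 6 were called lower in KO_2_BX_795 than in Ctrl_Vehicle, where 27.7% of all genes were higher and 28.0% lower, and 6 in KO_2_H151, where 26.0% were higher and 26.9% lower. HERC5 was at -2.29 ± 0.26 and -1.95 ± 0.25 and HERC6 at -1.03 ± 0.11 and -1.06 ± 0.11 on the log2 scale with BX-795 and H-151. UBA7 was at -0.57 ± 0.09 with BX-795 and -1.32 ± 0.10 with H-151, and UBE2L6 at -0.38 ± 0.05 and -0.81 ± 0.06. Markers moved in the same comparisons. All 8 squamous markers were lower than in Ctrl_Vehicle with each inhibitor (median log2 -0.71 with BX-795 and -1.03 with H-151). With BX-795 and H-151, COL3A1 was at -3.02 and -3.42 and COL1A1 at 1.10 and 0.81, while LUM was not called (-0.39 and -0.08). The part of these markers in the results was not tested. ISG15 and USP18 moved least and their calls were not stable. For ISG15 in KO_2_H151 (-0.31, adjusted p = 0.0324) adjusted p was 0.0849 with DESeq2, and between 0.0568 and 0.118 without Ctrl_Vehicle replicate 1 or 2 or any 1 library of KO_2_H151. For ISG15 in KO_2_BX_795 (-0.37, adjusted p = 0.0102) it was 0.0508 without Ctrl_Vehicle replicate 2. For USP18 in KO_2_H151 (-0.25, adjusted p = 0.0156) it reached 0.0687 without Ctrl_Vehicle replicate 3, and 0.0674 and 0.054 without KO_2_H151 replicate 2 or 3. For USP18 in KO_2_BX_795 (-0.22, adjusted p = 0.027) it was 0.0694 with DESeq2, 0.0586 with no filter, and 0.0607, 0.103, 0.097 and 0.0536 without Ctrl_Vehicle replicate 2 or 3 or KO_2_BX_795 replicate 2 or 3.

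In the iR4 experiment all 6 genes rose in iR4 over Vehicle, again HERC5 and ISG15 by the most. REXO4 itself stood at 61.4 ± 2.88 CPM in iR4, against 96.2 ± 3.53 CPM in Vehicle (SD, n = 3 each). In H151_iR4, REXO4 stood at 92.7, 88.9 and 93.1 CPM, near its level in Vehicle. Its log2 fold change there was 0.57 ± 0.04 over iR4 (adjusted p = 1.24e-11) and -0.07 ± 0.04 over Vehicle (adjusted p = 0.246, edgeR). The part of this difference in the H151_iR4 results was not tested. ISG15 stood at 235, 217 and 225.5 CPM in iR4, against 86.8, 93.7 and 89.3 CPM in Vehicle, a log2 fold change of 1.33 ± 0.04 (adjusted p = 3.04e-19). HERC5 stood at 26.3, 20.8 and 21.7 CPM in iR4, against 6.62, 6.34 and 5.58 CPM in Vehicle, a log2 fold change of 1.90 ± 0.10 (adjusted p = 8.76e-15). Neither gene overlapped between the groups, and the share of all genes that separate so was not counted.

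The other 4 rose less. HERC6 stood at 25.8, 24.1 and 22.7 CPM in iR4, against 16.2, 16.1 and 15.1 CPM in Vehicle (log2 0.62 ± 0.07, adjusted p = 1.4e-08). UBE2L6 stood at 28.8, 26.9 and 24.4 CPM in iR4, against 19.4, 19.3 and 19.3 CPM in Vehicle (log2 0.47 ± 0.07, adjusted p = 5.68e-07). UBA7 stood at 7.72, 7.54 and 6.57 CPM in iR4, against 5.20, 5.99 and 5.63 CPM in Vehicle (log2 0.37 ± 0.11, adjusted p = 0.00319). These groups did not overlap either, the UBA7 groups being the closest. USP18 changed by 0.33 ± 0.08 on the log2 scale (adjusted p = 0.000945). The members called higher were 6 of 6, where 37.1% of the 14000 genes tested were higher and 34.8% lower, and their median log2 fold change was 0.55, against 0.02 over all genes. Of the 8 squamous markers, 5 were higher and 3 lower in iR4, with DSG3 at 1.38, KRT17 at 0.76 and KRT5 at -0.86. Of the fibroblast list COL1A1 rose by 0.67, while PDGFRB (0.62), LUM (-0.02) and COL3A1 (-0.62) were not called. The part of these markers in the result was not tested.

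With H-151 added to iR4, the modifier and both ligases fell steeply and the E1 gene did not pass the test. ISG15 stood at 33.8, 36.4 and 37.8 CPM in H151_iR4, against 235, 217 and 225.5 CPM in iR4, which is 6.28-fold lower (log2 -2.65 ± 0.05, adjusted p = 1.28e-23). HERC5 stood at 0.856, 1.19 and 0.908 CPM in H151_iR4, against 26.3, 20.8 and 21.7 CPM in iR4, which is 22.9-fold lower (log2 -4.52 ± 0.15, adjusted p = 1.13e-18). Its level in H151_iR4 rests on 54 counts over the group, against 1468 over iR4. HERC6 stood at 8.62, 8.95 and 9.70 CPM in H151_iR4, against 25.8, 24.1 and 22.7 CPM in iR4 (log2 -1.42 ± 0.08, adjusted p = 2.52e-14). The libraries of the groups were far apart for all 3 genes.

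UBA7 stood at 6.38, 7.04 and 6.41 CPM in H151_iR4, against 7.72, 7.54 and 6.57 CPM in iR4, and these ranges overlapped. Its log2 fold change was -0.13, with an interval of -0.35 to 0.09 and an adjusted p of 0.267. UBE2L6 and USP18 fell by 0.37 and 0.35 on the log2 scale (adjusted p = 1.86e-05 and 0.000662). Of the 6 members, 5 were lower in H151_iR4, where 35.1% of genes tested were higher and 36.3% lower, and the median was -0.89, against -0.01 over all genes. Of 8 squamous markers, 6 were lower as well (median log2 -0.93), while EPCAM was higher (0.34) and KRT5 was not called (-0.03). Of the fibroblast list COL3A1 was higher (0.70), COL1A1 (-0.55) and PDGFRB (-1.28) were lower, and LUM was not called (-0.13). The part of these markers in the result was not tested.

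Set against Vehicle rather than iR4, H151_iR4 had less ISG15 (log2 -1.32 ± 0.05), HERC5 (-2.61 ± 0.20) and HERC6 (-0.79 ± 0.08), with adjusted p of at most 1.24e-07. That is 3 of 6 members, where 8.71% of genes tested were higher and 9.58% lower. UBA7, UBE2L6 and USP18 were at 0.24, 0.10 and -0.02, with adjusted p of 0.143, 0.362 and 0.912. For these 3 genes the intervals ran from 0.01 to 0.48, from -0.05 to 0.24 and from -0.20 to 0.16. Of the squamous markers KRT14 (-1.29), KRT5 (-0.89), TP63 (-0.81), KRT17 (-0.61) and SFN (-0.35) were lower than in Vehicle. EPCAM was higher (0.20), and DSG3 (-0.08) and CDH1 (-0.13) were not called, nor was any fibroblast-list gene tested. The part of these markers in the result was not tested.

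**Figure D2:**
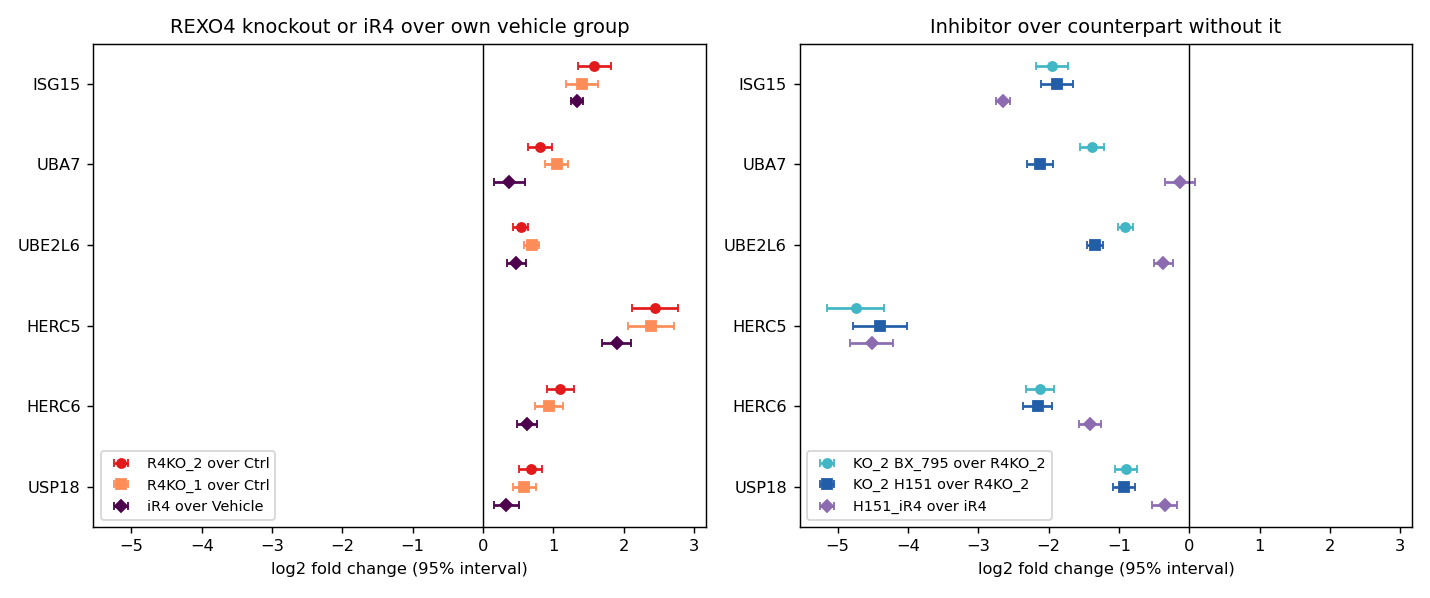
Log2 fold change of each gene with its interval at the 0.95 level (edgeR), on the left for each knockout over Ctrl_Vehicle and for iR4 over Vehicle, on the right for each inhibitor group over its counterpart without inhibitor. On the left all points lie to the right of 0, and on the right HERC5 lies between -4.74 and -4.40 while UBA7 runs from -2.13 in KO_2_H151 to -0.13 in H151_iR4.

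The vehicle groups of the experiments differed, with neither iR4 nor an inhibitor named in their labels. Vehicle had more ISG15 than Ctrl_Vehicle (log2 0.47 ± 0.10, adjusted p = 0.000281) and less UBA7 (-1.38 ± 0.10, adjusted p = 1.43e-12), UBE2L6 (-1.18 ± 0.06, adjusted p = 5.32e-16), HERC5 (-0.67 ± 0.20, adjusted p = 0.00552) and HERC6 (-0.25 ± 0.10, adjusted p = 0.0289). That is 1 member higher and 4 lower, where 25.6% of genes were higher and 25.9% lower. The HERC6 call was lost without Ctrl_Vehicle replicate 3 (adjusted p = 0.111) or Vehicle replicate 3 (0.104). USP18 was at -0.07 (adjusted p = 0.543). Of the squamous markers KRT17 (-1.16), TP63 (-0.86), DSG3 (-0.70), SFN (-0.66), KRT14 (-0.40) and EPCAM (-0.25) were lower in Vehicle. CDH1 (0.26) and KRT5 (0.17) were higher. Of the fibroblast list COL3A1 was lower (-1.02), and the other genes tested were not called. The part of these markers in the result was not tested. Only Ctrl_Vehicle is labelled as control cells. The cells, the vehicle, culture, batch and the experiment itself cannot be told apart in this difference.

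Differences in effect between the experiments were tested in a fit over all 24 libraries. The rise in iR4 over Vehicle was smaller than the mean rise of the knockouts over Ctrl_Vehicle for UBA7 (difference in log2 fold change -0.55 ± 0.13, adjusted p = 0.00187), HERC6 (-0.39 ± 0.12, adjusted p = 0.0136) and USP18 (-0.30 ± 0.11, adjusted p = 0.0425), where 14.7% of genes had a higher effect and 13.1% a lower one. The USP18 call was lost in 12 of 22 alternatives, with adjusted p up to 0.127. ISG15, UBE2L6 and HERC5 missed the threshold (adjusted p = 0.383, 0.186 and 0.0967), and HERC5 passed it without iR4 replicate 1 (0.0492), without R4KO_1_Vehicle replicate 1 (0.0105) and with no filter (0.000751).

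The change with H-151 differed between the experiments for 5 of the 6 genes. Relative to the change in KO_2_H151 over R4KO_2_Vehicle, that in H151_iR4 over iR4 was larger for ISG15 (difference -0.77 ± 0.14, adjusted p = 4.19e-05) and smaller for UBA7 (1.98 ± 0.14, adjusted p = 1.03e-12), UBE2L6 (0.96 ± 0.08, adjusted p = 5.39e-11), HERC6 (0.73 ± 0.14, adjusted p = 7.09e-05) and USP18 (0.56 ± 0.12, adjusted p = 0.000148). Among all genes 23.7% had a higher and 27.0% a lower difference. For HERC5 the difference was -0.13, with an interval of -0.997 to 0.743 (adjusted p = 0.815). With R4KO_1_Vehicle in place of R4KO_2_Vehicle, a fit added after seeing the data, the same differences were -0.95 for ISG15, 2.21 for UBA7, 1.11 for UBE2L6, 0.57 for HERC6 and 0.47 for USP18, with adjusted p of at most 0.00132.

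Over the 8 groups the genes kept different orders and ranges. The mean of HERC5 ran from 0.984 CPM in H151_iR4 to 53.6 CPM in R4KO_2_Vehicle, a span of 54.5-fold. ISG15 spanned 6.28-fold from H151_iR4 to iR4, UBA7 5.35-fold and UBE2L6 3.62-fold from Vehicle to R4KO_1_Vehicle, HERC6 4.43-fold and USP18 1.88-fold from KO_2_H151 to R4KO_2_Vehicle. Of the 7 steps between neighbouring groups, libraries overlapped at 2 for ISG15, UBA7 and HERC5, 1 for UBE2L6, 3 for HERC6 and 5 for USP18. The R4KO_2_Vehicle and R4KO_1_Vehicle libraries overlapped for ISG15, HERC5, HERC6 and USP18. The KO_2_BX_795 and KO_2_H151 libraries overlapped for ISG15, HERC5, HERC6 and USP18, and 3 groups given an inhibitor had HERC6 means between 9.06 and 9.24 CPM. For USP18 the lowest 5 groups, from KO_2_H151 to Ctrl_Vehicle, each overlapped the next.

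UBA7 and UBE2L6, the E1 and E2 genes, had the most similar pattern to each other of all candidate genes, with a Pearson r of 0.980 over 24 libraries on the log2 CPM scale. They were lowest in Vehicle, highest in R4KO_1_Vehicle, and higher in Ctrl_Vehicle than in iR4. ISG15 was the highest in iR4, and its r with UBA7 was 0.508, the lowest between any members. The 24 points share groups and experiments, and r is a description with no test.

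**Figure D3:**
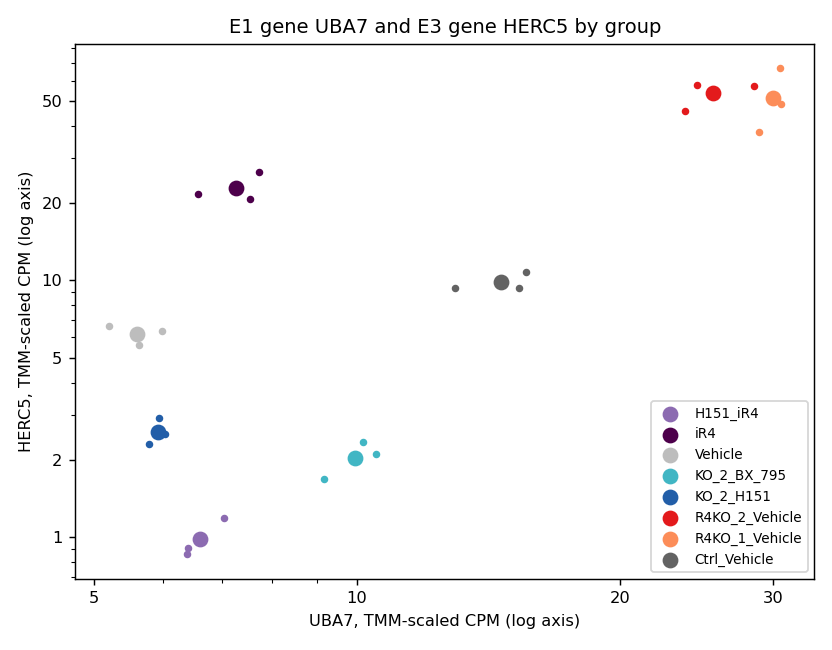
TMM-scaled CPM of the ligase gene HERC5 (y, log axis) against the E1 gene UBA7 (x, log axis) in the 24 libraries, with small points for libraries and large points for group means. The iR4 group has 22.9 CPM of HERC5 with 7.27 CPM of UBA7, while Ctrl_Vehicle has 9.83 CPM of HERC5 with 14.6 CPM of UBA7.

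By mean centred log2 CPM of the 6 members, the 10 genes most like the system among 11893 candidates were IFIT3, STAT6, RIGI, IFI44, PLEKHA4, HCAR2, DDX60, PLAAT4, OAS2 and PLCG2, with r from 0.989 to 0.979 over 24 libraries. IFIT3, IFI44 and OAS2 are known interferon-stimulated genes, and RIGI encodes a sensor of viral RNA. IFIT3 was the closest gene to HERC5 (r = 0.997) and to HERC6 (0.978). CSF1R, a growth factor receptor, was the closest to ISG15 (0.969) and MMP14, a membrane protease, to USP18 (0.961). Over the 8 group means, or with Spearman's rho, 6 of the 10 named genes were retained.

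Other enzymes reported to act on ISG15 were called in both directions. Of 9 tested in R4KO_2_Vehicle over Ctrl_Vehicle, 3 were higher and 4 lower (median log2 fold change -0.10), and in R4KO_1_Vehicle 2 were higher and 4 lower (median -0.09). Over all genes tested, 34.0% were higher and 32.2% lower in R4KO_2_Vehicle and 33.0% higher and 31.4% lower in R4KO_1_Vehicle, and the counts of this list are near those shares. TRIM25, a ubiquitin ligase also reported as an ISG15 ligase, rose by 0.51 ± 0.06 in R4KO_2_Vehicle and was at 0.01 ± 0.06 in R4KO_1_Vehicle (adjusted p = 4.47e-08 and 0.849). It fell by 0.87 and 0.99 with BX-795 and H-151 against R4KO_2_Vehicle, rose by 0.74 in iR4 and fell by 0.70 in H151_iR4. ARIH1, a ligase reported for ISG15, rose by 0.33 and 0.37 in R4KO_2_Vehicle and R4KO_1_Vehicle. The protease USP5 fell by 0.43 and 0.29 there and was higher with BX-795 and H-151, by 0.61 and 0.58 against R4KO_2_Vehicle. Of the 9 tested, 3 were higher and 3 lower with BX-795 and 4 were higher and 3 lower with H-151 in the knockout, 3 were higher and 4 lower in iR4, and 4 were higher and 2 lower in H151_iR4. Among all genes, 36.4% were higher and 37.1% lower with BX-795, and 35.7% higher and 37.0% lower with H-151. In iR4 37.1% were higher and 34.8% lower, and in H151_iR4 35.1% were higher and 36.3% lower. The counts of the list are near these shares as well.

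Among 10 tested genes that regulate ISRE-driven transcription, 6 were higher and 0 lower in each knockout, with medians of 0.39 in R4KO_2_Vehicle and 0.18 in R4KO_1_Vehicle. Over all genes 34.0% were higher and 32.2% lower in R4KO_2_Vehicle, and 33.0% higher and 31.4% lower in R4KO_1_Vehicle, with a median of 0.02 in each. IRF7, an inducible activator of interferon genes, rose by 2.03 ± 0.12 and 1.87 ± 0.12, and IRF9, the DNA-binding partner of STAT2, by 1.51 ± 0.22 and 1.86 ± 0.21. IRF1, another activator of interferon-stimulated genes, rose by 0.79 and 0.73. With each inhibitor 7 of the 10 were lower than in R4KO_2_Vehicle and 0 higher, with IRF9 at -1.88 and -1.86 and IRF1 at -1.31 and -1.39 for BX-795 and H-151. Among all genes, 36.4% were higher and 37.1% lower with BX-795, and 35.7% higher and 37.0% lower with H-151. In iR4, 6 were higher and 1 lower, with IRF7 at 1.93 and IRF9 at 1.13. In H151_iR4 over iR4, 6 were lower and 1 higher, with IRF7 at -1.75 and IRF9 at -1.06. Among all genes, 37.1% were higher and 34.8% lower in iR4, and 35.1% higher and 36.3% lower in H151_iR4 over iR4.

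The same list also holds IFNB1 and IFNL1, a type I and a type III interferon. Both were near the limit of detection and were not tested, and other interferon genes were not looked at. IFNB1 had 7 counts over R4KO_2_Vehicle, 4 over R4KO_1_Vehicle and 0 over Ctrl_Vehicle, and 6 over iR4 and 0 over Vehicle. IFNL1 had 29, 28 and 0 counts over R4KO_2_Vehicle, R4KO_1_Vehicle and Ctrl_Vehicle, and 13 over iR4 and 0 over Vehicle. With inhibitors, IFNB1 had 2 counts over KO_2_BX_795 and 0 over KO_2_H151 and H151_iR4, and IFNL1 had 0 counts over KO_2_BX_795, 1 over KO_2_H151 and 0 over H151_iR4.

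Of 20 genes whose products are reported to carry ISG15, 9 were higher and 4 lower in each knockout over Ctrl_Vehicle, where 33.0% to 34.0% of all genes were higher and 31.4% to 32.2% lower. Their median log2 fold changes were 0.10 in R4KO_2_Vehicle and 0.13 in R4KO_1_Vehicle, against 0.02 over all genes. The RNA sensors RIGI (2.28 and 2.201) and IFIH1 (1.13 and 0.95) rose in R4KO_2_Vehicle and R4KO_1_Vehicle, and the ubiquitin-conjugating enzyme UBE2N fell by 0.50 and 0.44. With either inhibitor 11 of the 20 were lower than in R4KO_2_Vehicle and 6 higher. Among all genes, 36.4% were higher and 37.1% lower with BX-795, and 35.7% higher and 37.0% lower with H-151. RIGI was at -3.41 and -3.44 with BX-795 and H-151, and IFIH1 at -1.70 and -1.90. MX1, an antiviral GTPase and a known interferon-stimulated gene, was at 0.11 and 0.18 in R4KO_2_Vehicle and R4KO_1_Vehicle (adjusted p = 0.607 and 0.393), and at -0.35 in iR4 (adjusted p = 0.0953). It rose by 0.38 in KO_2_BX_795 over R4KO_2_Vehicle (adjusted p = 0.0408, edgeR) and was at -0.09 in KO_2_H151 (adjusted p = 0.647). In iR4 10 of the list were higher and 7 lower, and in H151_iR4 over iR4 5 were higher and 10 lower, with RIGI at 2.02 and -3.06. Among all genes, 37.1% were higher and 34.8% lower in iR4, and 35.1% higher and 36.3% lower in H151_iR4 over iR4.

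The E1 genes and modifiers of related systems are set here against all genes, of which 34.0% were higher and 32.2% lower in R4KO_2_Vehicle, 33.0% higher and 31.4% lower in R4KO_1_Vehicle, and 37.1% higher and 34.8% lower in iR4. Of the E1 genes of other ubiquitin-like modifiers, 0 of 9 were higher and 4 lower in R4KO_2_Vehicle, and 0 were higher and 6 lower in R4KO_1_Vehicle. ATG7, the E1 of autophagy, fell by 0.44 and 0.36 in R4KO_2_Vehicle and R4KO_1_Vehicle. In iR4 0 of 9 were higher and 7 lower. Of 12 other modifier genes tested, 2 were higher and 9 lower in R4KO_2_Vehicle, 0 were higher and 8 lower in R4KO_1_Vehicle, and 2 were higher and 7 lower in iR4. URM1 fell by 0.75, 0.57 and 0.47 in those comparisons. HERC1 to HERC4 and UBE2L3, relatives of the members, had log2 fold changes between -0.34 and 0.21 in the knockouts and between -0.62 and 0.15 in iR4. Of these 5 genes, 2 were higher and 2 lower in R4KO_2_Vehicle, 1 was higher and 2 lower in R4KO_1_Vehicle, and 1 was higher and 3 lower in iR4.

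With inhibitors, the shares of all genes were 36.4% higher and 37.1% lower with BX-795, 35.7% higher and 37.0% lower with H-151, and 35.1% higher and 36.3% lower in H151_iR4. The E1 count with BX-795 is near that share. Of the 9 E1 genes, 4 were higher and 2 lower with BX-795 and 6 were higher and 2 lower with H-151 against R4KO_2_Vehicle, and 7 were higher and 0 lower in H151_iR4 over iR4. Of the 12 modifiers, 8 were higher and 1 lower with BX-795, 9 were higher and 1 lower with H-151, and 9 were higher and 3 lower in H151_iR4. URM1 rose by 0.999 with BX-795 and 0.90 with H-151, each against R4KO_2_Vehicle. Of the 5 relatives, HERC4 was the 1 that fell with either inhibitor in the knockout, by 0.59 and 0.71, while 2 were higher, and in H151_iR4 3 were higher and 2 lower.

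**Figure D4:**
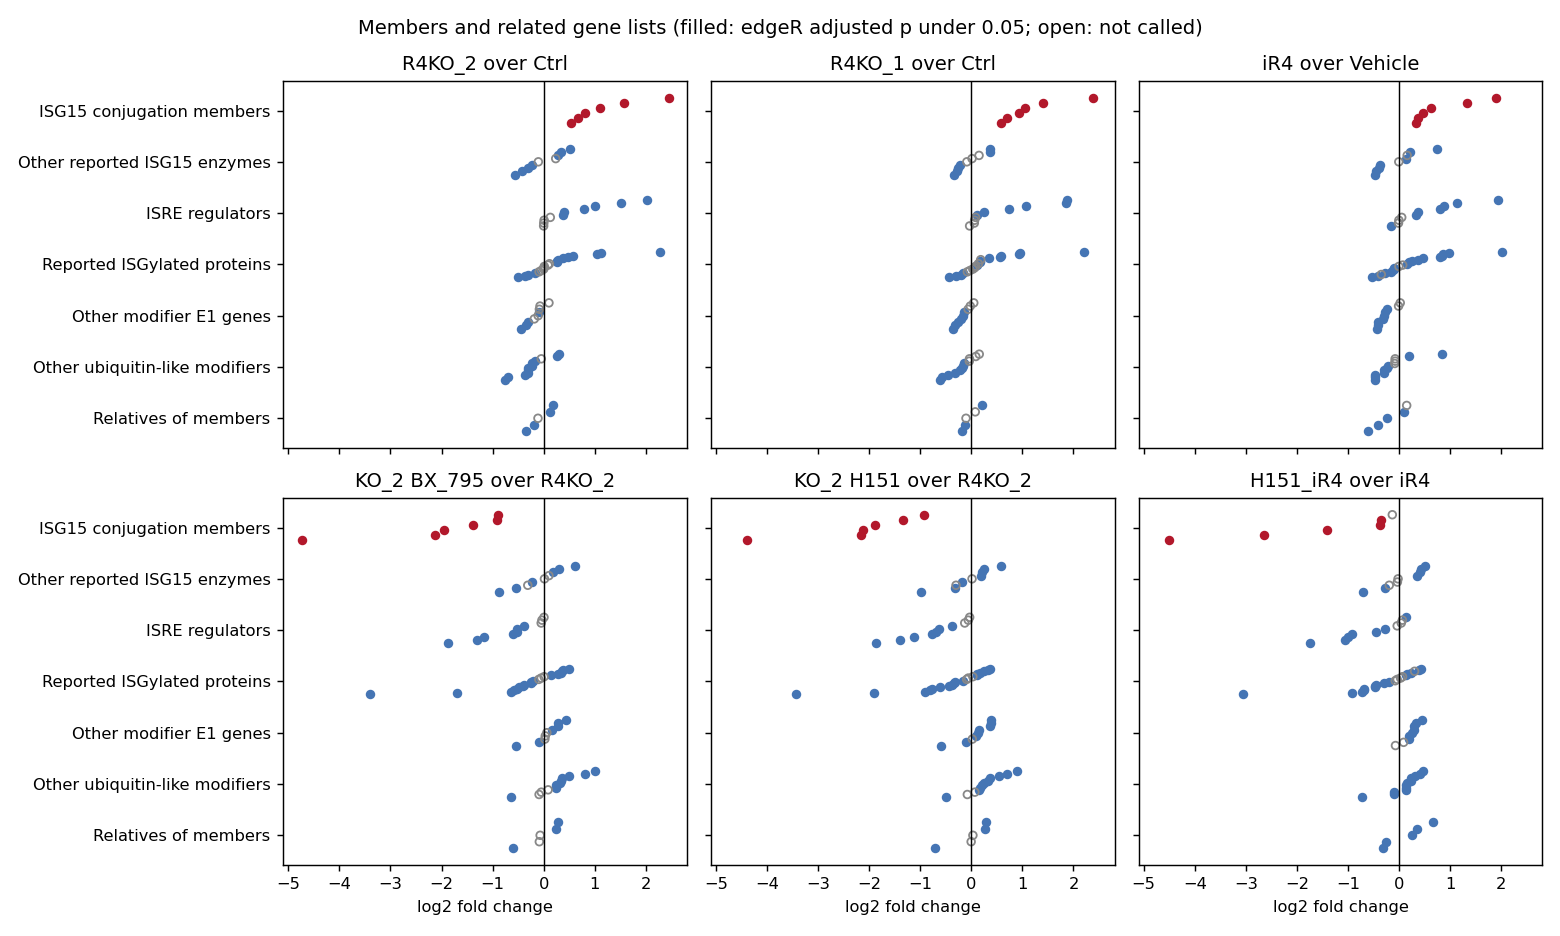
Log2 fold changes of the members (red) and of 6 lists of related genes (blue) in 6 comparisons, with 1 point per gene, filled where edgeR's adjusted p is under 0.05 and open where it is not. The members lie to the right of 0 in the upper panels, at 0.33 to 2.45, and to the left of it in the lower panels, at -4.74 to -0.13, while the E1 genes of other modifiers lie between -0.60 and 0.45.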

How the data were processed

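Libraries were made from oligo(dT)-selected RNA, per the labels' protocols, although genomic DNA is the molecule that the labels state. The values are raw read counts per gene ID that the authors deposited, 1 file per library, not normalized. The submitters' processing notes name HISAT2 2.2.1 and featureCounts 2.0.1, further DESeq2 1.42.0, Trim Galore 0.6.4 and FastQC 0.11.9, and the builds hg38 and mm10. The sources used here do not give the annotation, the strand setting or the handling of multimapping reads.

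The 37994 lines of the human files gave 35135 gene IDs, and each member had 1. Groups were taken from the sample titles. Genes were filtered with filterByExpr of edgeR 4.0.16 (minimum count of 10) in R 4.3.3, scaled with TMM and tested 2-sided with the quasi-likelihood test. The knockout experiment (15 libraries) and the iR4 experiment (9 libraries) were fitted apart, each over all its groups. Comparisons between the experiments used 1 fit over 24 libraries. P-values were adjusted with the Benjamini-Hochberg method over all genes tested, and a gene was called at an adjusted p under 0.05. Each SE was derived from the test, as the absolute unshrunken log2 fold change divided by the square root of its F statistic. Intervals are at the 0.95 level and were built from this SE, a t quantile and the log2 fold change that edgeR reports. Levels per kb use the GENCODE v29 exon union, which may differ from the annotation that was counted, and the intervals and levels rest on PCR reads without molecular identifiers.

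The genes named from each list were the 2 called genes with the largest rise and the 2 with the largest fall in each main comparison, or fewer. The members, the lists and the rules were chosen with earlier results of these data known, as were the tests. Similar patterns were ranked by Pearson r of log2 CPM (prior count 2) among genes with a mean log2 CPM of at least 1. The scripts were tested on simulated data with known fold changes. No replicate pair of a group held the same counts within sampling noise. Same-numbered replicates did not deviate together: of 39 pairs, 1 had a correlation over 0.1 (median 0.00149). Alternatives were DESeq2, RLE and upper-quartile factors, no filter, a stricter filter of 1 CPM, only the groups compared, the replicate block and leaving out each library. The 4 mouse tumors stand in the closing section.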

Additional observations from a re-analysis of the deposited data

Results flagged for a closer look

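Tested effects that differed between the SCC1 experiments are collected here. The treatment and the experiment cannot be told apart in any of them, and what they rest on was not tested.

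The effect of iR4 over Vehicle was below the mean effect of the knockouts over Ctrl_Vehicle by -0.55 on the log2 scale for UBA7, -0.39 for HERC6 and -0.30 for USP18. For UBA7 the iR4 effect was 0.37, against 0.81 in R4KO_2_Vehicle and 1.04 in R4KO_1_Vehicle. For HERC6 it was 0.62 in iR4, against 1.10 in R4KO_2_Vehicle and 0.94 in R4KO_1_Vehicle. For USP18 it was 0.33 in iR4, against 0.68 in R4KO_2_Vehicle and 0.59 in R4KO_1_Vehicle.

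The effect of H-151 in H151_iR4 over iR4 differed from that in KO_2_H151 over R4KO_2_Vehicle by -0.77 for ISG15, 1.98 for UBA7, 0.96 for UBE2L6, 0.73 for HERC6 and 0.56 for USP18. For ISG15 the effects were -2.65 in H151_iR4 and -1.89 in KO_2_H151. For UBA7 they were -0.13 in H151_iR4 and -2.13 in KO_2_H151, and for UBE2L6 -0.37 in H151_iR4 and -1.34 in KO_2_H151. For HERC6 they were -1.42 in H151_iR4 and -2.16 in KO_2_H151, and for USP18 -0.35 in H151_iR4 and -0.93 in KO_2_H151. Taken against R4KO_1_Vehicle instead, a choice made after seeing the data, the KO_2_H151 effects were -1.71 for ISG15, -2.36 for UBA7, -1.50 for UBE2L6, -2.00 for HERC6 and -0.84 for USP18. Without H-151, UBA7 and UBE2L6 stood at 7.27 and 26.7 CPM in iR4, against 25.6 and 63.0 CPM in R4KO_2_Vehicle.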

How the results depend on the processing

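Of 1089 values of called members under alternatives in SCC1, 1054 kept their direction and their call. Leaving out libraries 1 at a time, the members called lower were 4 to 5 for KO_2_H151 and 4 to 6 for KO_2_BX_795 against Ctrl_Vehicle, 3 to 4 for Vehicle against Ctrl_Vehicle and 2 to 4 for the iR4 effect minus the knockout effect. For R4KO_2_Vehicle against R4KO_1_Vehicle they were 0 to 2, and the members called higher were 0 to 3, and 1 with no filter. The log2 difference of HERC5 there ran from -0.11 (without R4KO_1_Vehicle replicate 1) to 0.30. In KO_2_BX_795 against KO_2_H151 HERC6 ran from -0.0205 (without KO_2_BX_795 replicate 3) to 0.0889, and USP18 from -0.0151 (without KO_2_H151 replicate 2; -0.00901 without KO_2_BX_795 replicate 1) to 0.0900. In H151_iR4 against Vehicle USP18 ran from -0.0765 to 0.0257 (without Vehicle replicate 2; 0.0145 without H151_iR4 replicate 3). No value that turned its direction was called. All genes called in KO_2_BX_795 against KO_2_H151 were 814 higher and 573 lower, 814 to 1015 in all with a library left out, and 2653 with only the groups compared. The cause was not tested. With the replicate block, the call of USP18 in the iR4 effect minus the knockout effect was lost (-0.30, adjusted p = 0.0516, edgeR) and no other call of a member changed. The numbers only name libraries, as no pairing was found. Of the 10 genes most like the members, 6 were shared with the ranking over 8 group means and 6 with Spearman's rho. In the mouse tumors DESeq2 called 161 genes, 1 of them an orthologue of a member, and edgeR with no filter called 6. Among the SCC1 values of members, HERC5 in H151_iR4 rests on the fewest counts, 54 over the group. In the mouse Wt tumors Herc6 rests on 20 and 5 counts.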

Other observations

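Bulk RNA of autochthonous mouse HNSCC tumors, 2 from Rexo4 knockouts and 2 from wild type, was measured as well. Rexo4 stood at 17.4 and 14.9 CPM in R4KO tumors, against 31.1 and 30.3 CPM in Wt tumors. Mouse has 5 orthologues of the members. Uba7 stood at 6.96 and 7.96 CPM in R4KO tumors, against 1.02 and 1.46 CPM in Wt tumors. Isg15 stood at 3.56 and 16.9 CPM in R4KO tumors, against 1.52 and 3.11 CPM in Wt tumors. Herc6 stood at 3.04 and 2.41 CPM in R4KO tumors, against 1.13 and 0.331 CPM in Wt tumors. Ube2l6 and Usp18 stood at 7.48 and 10.2 CPM and at 2.17 and 4.17 CPM in R4KO tumors, against 4.12 and 6.02 CPM and 0.733 and 1.06 CPM in Wt tumors. For all 5 genes both R4KO tumors were above both Wt tumors, though Isg15 only narrowly (3.56 against 3.11 CPM). The share of all genes that separate in this way was not counted, so no rise is read from it. None was called with edgeR (adjusted p of at least 0.97), which called 0 of 14523 genes, with 655 at an unadjusted p under 0.05. DESeq2 called 161 genes, of which Uba7 was 1 (adjusted p = 0.0113). How cell makeup differed between the tumors was not tested.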
